A study of Mus musculus with 7 samples.

Results

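Hnf4a, Hnf4g, Pax2, Pax8, Lhx1, Pou3f3, Tfcp2l1 and Emx1 encode 8 transcription factors of the kidney tubule. They were taken by gene symbol from the 24328 gene rows of a kidney RNA-seq dataset, where each was listed once. The dataset compares 3 LBR-null mice with 1 WT mouse, a littermate, to ask how loss of the lamin B receptor (LBR) alters gene expression. This receptor sits in the nuclear envelope and binds lamin B and silent chromatin there. The LBR-null mice (4001, 4002 and 4007) carry the genotype Lbric-J/ic-J, a loss-of-function allele present in every cell of the body, and the WT mouse (4009) is Lbr+/+. All are C57BL/6J mice of 4 weeks on the same chow, with no treatment. Polyadenylated RNA came from the whole right kidney, so segments of the tubule were not separated, and in such tissue fewer cells of a type and less RNA per cell cannot be told apart. Of mouse 4002 there is 1 library and of each other mouse 2, which makes 5 LBR-null and 2 WT libraries.

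The kidney tubule is a chain of segments, each with its own transporters. The proximal tubule reclaims most of the filtered glucose, amino acids and phosphate, the thick ascending limb and distal tubule reclaim salt, and the collecting duct sets water and acid balance. Transcription factors laid down as the nephron forms keep many of these programs running in the adult. HNF4A, a nuclear receptor-type factor, and its paralog HNF4G act in the proximal tubule. PAX2 and PAX8 are paired-box factors that found the renal lineage, and LHX1 is a LIM homeodomain factor of the early nephron. POU3F3 is a POU factor needed for the loop of Henle and distal tubule, TFCP2L1 acts in the collecting duct, and EMX1 is a homeobox factor best known from the cerebral cortex whose paralog EMX2 is needed for the urogenital tract.

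The libraries held 20694016 to 26333284 reads on genes, and 1 read was worth 0.788 to 1.15 normalized counts, which are reads divided by the size factor of the library. At this depth every member was covered in every library, from 62 reads for Hnf4g at its lowest to 14881 reads for Hnf4a at its highest. Lbr itself was at 322, 340 and 471 normalized counts in LBR-null mice 4001, 4002 and 4007 and at 398 in the WT mouse, so its RNA level did not separate the genotypes, and a count over the whole gene does not show the mutation. LBR-null mice 4001, 4002 and 4007 had 5785, 65.3 and 9940 normalized counts of Xist, the RNA of the inactive X chromosome, and WT had 35.5. Of the Y-linked Ddx3y they had 141, 1516 and 44.3, and WT had 1284. The labels give no sex. By both genes mouse 4002 was the one close to the WT mouse. Mouse 4001 was high in Xist and also had 141 normalized counts of Ddx3y, and whether its sample holds RNA of more than 1 animal was not tested. The part of this difference in the levels of the factors was not tested.

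None of the 8 factors passed the test for a difference between LBR-null and WT kidneys. With limma on mouse means, 0 of 8 were called at an adjusted p below 0.05 and a 2-fold difference, where 0% of the 17283 genes tested were called, and the adjusted p of the members ranged from 0.222 to 0.897. At an unadjusted limma p below 0.05 there was 1 of 8, Emx1, and 18.76% of all genes. On the recovered reads, edgeR and DESeq2 also called 0 of 8, of 28 and 1109 genes called in all. The fit rests on 2 residual degrees of freedom and assumes the spread of the LBR-null mice for the lone WT mouse. An exact permutation test of 1 mouse against 3 cannot give a p below 0.25, whatever the values. The average over LBR-null mice was at least 2-fold lower than WT for 0 of 8 members (7.04% of all genes tested) and at least 2-fold higher for 0 of 8 (14.5% of all genes tested). For 7 of 8 the difference was under 1.5-fold, as it was for 75.1% of the 11831 tested genes with a mean of at least 100 normalized counts. Emx1 was the exception, with 0.637 times the WT level. The median log2 difference over the members was -0.18, against 0.03 over all genes tested. Single LBR-null mice gave -0.25 (4001), 0.07 (4002) and -0.08 (4007), and without mouse 4001 the median of the average was 0.002.

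**Figure D1:**
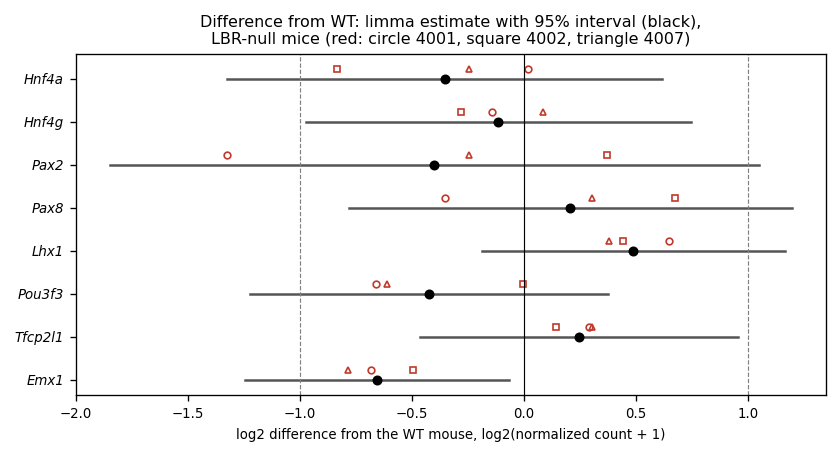
Log2 difference of each factor from the WT mouse on the scale of log2(normalized count + 1), with the limma estimate (black point), its 95% interval (black line), the 3 LBR-null mice (red symbols) and dashed lines at 2-fold. The interval excludes 0 for Emx1 alone, which did not pass the adjusted test, and the 3 mice lie on both sides of 0 for Hnf4a, Hnf4g, Pax2 and Pax8.

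The estimates were too wide to say that the levels were alike. The 95% interval of the fold difference ran from 0.399 to 1.53 for Hnf4a, 0.509 to 1.68 for Hnf4g, 0.278 to 2.07 for Pax2 and 0.583 to 2.29 for Pax8. It ran from 0.879 to 2.24 for Lhx1, 0.428 to 1.30 for Pou3f3, 0.724 to 1.94 for Tfcp2l1 and 0.422 to 0.956 for Emx1. A 2-fold lower level lay inside the interval for Hnf4a, Pax2, Pou3f3 and Emx1, and a 2-fold higher one for Pax2, Pax8 and Lhx1.

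Hnf4a (chr2:163332544-163398646 in mm9, plus strand) was read at 11655 and 12242 normalized counts in the libraries of mouse 4001, 6624 in mouse 4002, 9663 and 10266 in mouse 4007, and 11719 and 11901 in the WT mouse. Mouse 4001 was level with WT, and mouse 4002 stood lowest. The LBR-null average was 9512 ± 2691 (SD, n = 3 mice) against 11810 in WT, and limma gave a log2 difference of -0.35 ± 0.40 (SE, adjusted p = 0.685). Without mouse 4001 the limma log2 difference was -0.54, with all 3 remaining LBR-null libraries below both WT libraries, and without mouse 4002 it was -0.11.

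Hnf4g (chr3:3508030-3659775, plus strand), the lowest of the factors, was at 71.2 and 121 in mouse 4001, 86.8 in mouse 4002, 136 and 88.4 in mouse 4007, and 115 and 96.8 in WT. The libraries of mouse 4001 differed by 0.75 on the log2 scale and those of mouse 4007 by 0.61, more than the limma log2 difference of -0.11 ± 0.36 (SE, adjusted p = 0.897) between the genotypes. That difference was 0.01 without WT library 1, -0.23 without WT library 2, -0.03 without mouse 4002 and -0.21 without mouse 4007. LBR-null averaged 98.3 ± 12.8 (SD, n = 3 mice) against 106 in WT, and the groups overlapped. Of the reads of Hnf4a, those of Hnf4g made 0.611% to 1.41% in LBR-null libraries and 0.813% to 0.981% in WT libraries.

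Pax2 and Pax8 varied more between LBR-null mice than between the genotypes. Pax2 (chr19:44830539-44912758, plus strand) was at 427 and 469 normalized counts in mouse 4001, 1448 in mouse 4002, 892 and 998 in mouse 4007, and 1169 and 1075 in WT. Mouse 4002 stood above WT and mouse 4001 was at less than any other mouse, with a log2 difference from WT of -1.32. The LBR-null average was 947 ± 500.0 (SD, n = 3 mice) against 1122, the widest relative spread of the 8 (limma log2 difference -0.40 ± 0.60 SE, adjusted p = 0.764), and the limma log2 difference was 0.06 without mouse 4001 and -0.79 without mouse 4002.

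Pax8 (chr2:24276071-24331119, minus strand) was at 1862 and 2015 in mouse 4001, 3949 in mouse 4002, 2978 and 3132 in mouse 4007, and 2503 and 2452 in WT. The LBR-null mice lay on both sides of WT, at 2981 ± 1007 (SD, n = 3 mice) against 2478, and the limma log2 difference was 0.21 ± 0.41 (SE, adjusted p = 0.826). Without mouse 4002 it was -0.03, and without mouse 4001 it was 0.49. Both Pax genes had the order 4001, 4007, 4002 from lowest to highest, and Hnf4a had the opposite order. Summed over 11 other collecting duct factors, levels rose in the order of the Pax genes (6156, 8580 and 12121, against 9298 in WT). This order was not particular to that list. Sums of thick limb and distal factors (13144, 13222 and 16846) and of glomerular and stromal factors (3444, 6121 and 6688) shared it. Those of proximal tubule and of progenitor factors did not. Among collecting duct markers, the intercalated cell sum shared it (17361, 20006 and 20120) and the principal cell sum did not (43972, 33673 and 56686). With 3 mice these orders were not tested.

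The ratio of the Pax genes to each other showed no overlap. Within a library, Pax2 reads were 22.9% and 23.2% of Pax8 reads in mouse 4001, 36.7% in mouse 4002 and 30.0% and 31.9% in mouse 4007, against 46.7% and 43.8% in WT. No LBR-null library reached a WT library, and the LBR-null mean was 30.2% ± 6.81 (SD, n = 3 mice). This ratio does not depend on the size factor. It was picked after the values were seen and was not tested.

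**Figure D2:**
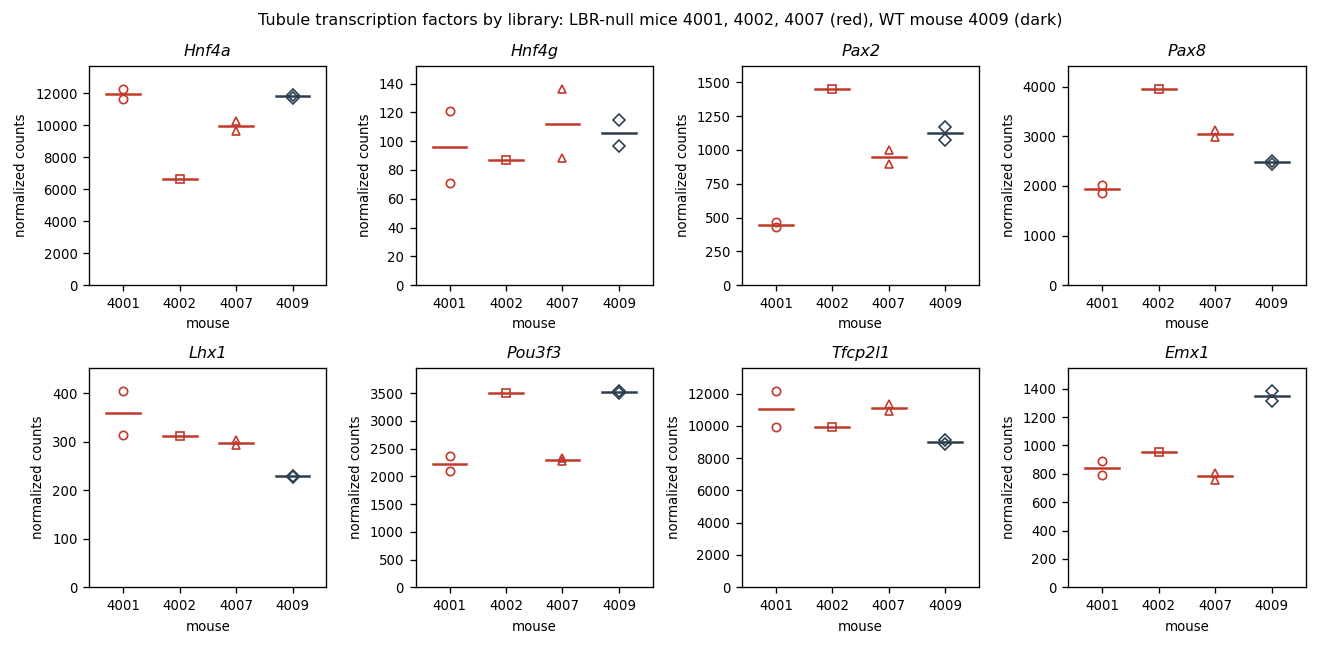
Normalized counts (vertical axis, from 0) of the 8 factors by mouse, with 1 symbol per library and a bar at the mean of the mouse, LBR-null in red and WT dark. Emx1 lies below WT, and Lhx1 and Tfcp2l1 above it, in each of the 5 LBR-null libraries, whereas the LBR-null libraries of the other 5 factors overlap WT or lie on both sides of it.

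For 3 of the 4 remaining factors, no LBR-null library overlapped the WT libraries. Emx1 (chr6:85137432-85154456, plus strand) was at 886 and 791 normalized counts in mouse 4001, 954 in mouse 4002, 756 and 808 in mouse 4007, and 1381 and 1314 in WT. The highest LBR-null library was thus below the lowest WT library. Such a gap downward held for 1 of 8 members and 25.7% of all genes tested. LBR-null averaged 858 ± 87.7 (SD, n = 3 mice) against 1347, and limma gave a log2 difference of -0.65 ± 0.24 (SE, unadjusted p = 0.0344, adjusted p = 0.222). Over the 16 alternatives of the analysis the log2 difference stayed between -0.73 and -0.59, with adjusted p from 0.0673 to 0.672. Emx2 (chr19:59533180-59539847), the paralog, was at 417, 749 and 482 in mice 4001, 4002 and 4007 against 821 in WT, and Emx1 reads as a percent of Emx2 reads overlapped between the groups (127% to 204% in LBR-null, 160% to 168% in WT).

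Lhx1 (chr11:84331479-84338923, minus strand) had 314 and 404 normalized counts in mouse 4001, 311 in mouse 4002, 293 and 303 in mouse 4007, and 230 and 228 in WT. Each LBR-null library lay above WT, as for 25.5% of all genes tested. The average was 323 ± 31.9 (SD, n = 3 mice) against 229, and the limma log2 difference was 0.49 ± 0.28 (SE, adjusted p = 0.401). The 2 libraries of mouse 4001 differed by 0.36 on the log2 scale, close to the difference between the genotypes.

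Tfcp2l1 (chr1:120524522-120581744, plus strand) had 9905 and 12132 normalized counts in mouse 4001, 9950 in mouse 4002, 10898 and 11326 in mouse 4007, and 8902 and 9121 in WT. It too was above WT in each LBR-null library, at 10693 ± 646 (SD, n = 3 mice) against 9011, a limma log2 difference of 0.25 ± 0.29 (SE, adjusted p = 0.702). Lhx1 and Tfcp2l1 were the 2 of 8 members with this upward gap.

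Pou3f3 (chr1:42753991-42757052, plus strand), a gene of a single exon, stood at 2365 and 2089 in mouse 4001, 3501 in mouse 4002, 2269 and 2325 in mouse 4007, and 3495 and 3533 in WT. Mouse 4002 was level with WT, and the other LBR-null mice were lower by 0.66 and 0.61 on the log2 scale. The LBR-null average was 2675 ± 716 (SD, n = 3 mice) against 3514 (limma log2 difference -0.43 ± 0.33 SE, adjusted p = 0.533).

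Mouse 4002 was the LBR-null mouse with Xist and Ddx3y near WT levels. Its log2 difference from WT was -0.83 for Hnf4a, -0.28 for Hnf4g, 0.37 for Pax2, 0.67 for Pax8, 0.44 for Lhx1, -0.005 for Pou3f3, 0.14 for Tfcp2l1 and -0.50 for Emx1. In mice 4001 and 4007, both high in Xist, Pou3f3 was at -0.66 and -0.61 and Emx1 at -0.68 and -0.78. Lhx1 was at 0.645 and 0.379 and Tfcp2l1 at 0.290 and 0.302. These 2 mice lay further apart for Pax2 (-1.32 and -0.247) and Pax8 (-0.354 and 0.302). Hnf4a was at 0.017 and -0.245 and Hnf4g at -0.141 and 0.083. With 1 library of mouse 4002, the part of Xist and Ddx3y in these values was not tested.

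The study sorts genes by whether a CpG island lies at the promoter, since genes without one are those it follows in heterochromatin. Its classes combine islands called from sequence with regions found by CxxC purification, and genes without an island must lack them along the gene body. The windows below were scored by sequence alone, so CpG-rich and CpG-poor here are not the study's classes. RefSeq promoter windows (250 bases before to 50 after a start, GRCm38.p6, another build than the mm9 of the files) were found for 7 of 8 members, 10 windows in all. Of these, 6 had a GC content of at least 50% and an observed over expected CpG ratio above 0.6, against 33.4% of 32851 windows. The windows of the 3 factors whose groups did not overlap are printed first, and both windows of Hnf4a follow as the CpG-poor contrast, 5′ to 3′ on the strand of the gene, with each CG in capitals. In order they lie at chr6:85187681-85187980 (plus), chr11:84525485-84525784 (minus), chr1:118627695-118627994 (plus), chr2:163506607-163506906 (plus) and chr2:163546905-163547204 (plus).
Emx1: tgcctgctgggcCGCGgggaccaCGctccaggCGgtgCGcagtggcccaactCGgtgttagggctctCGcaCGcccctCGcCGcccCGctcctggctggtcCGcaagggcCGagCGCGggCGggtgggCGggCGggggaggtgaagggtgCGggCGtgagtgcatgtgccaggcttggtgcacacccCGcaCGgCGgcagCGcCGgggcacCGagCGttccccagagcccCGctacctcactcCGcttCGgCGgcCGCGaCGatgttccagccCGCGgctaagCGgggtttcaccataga
Lhx1: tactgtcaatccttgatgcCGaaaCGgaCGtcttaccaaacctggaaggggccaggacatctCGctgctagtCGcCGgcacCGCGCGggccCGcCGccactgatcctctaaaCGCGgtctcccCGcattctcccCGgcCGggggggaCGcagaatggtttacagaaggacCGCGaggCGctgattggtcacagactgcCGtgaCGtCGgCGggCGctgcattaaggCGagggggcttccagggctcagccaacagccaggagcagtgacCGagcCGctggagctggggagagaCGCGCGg
Tfcp2l1: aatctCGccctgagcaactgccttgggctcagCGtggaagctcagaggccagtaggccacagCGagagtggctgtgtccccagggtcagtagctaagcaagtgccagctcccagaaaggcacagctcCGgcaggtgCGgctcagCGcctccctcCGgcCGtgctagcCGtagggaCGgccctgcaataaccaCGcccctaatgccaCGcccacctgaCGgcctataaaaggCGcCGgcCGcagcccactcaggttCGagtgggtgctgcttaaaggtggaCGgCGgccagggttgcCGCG
Hnf4a, first window: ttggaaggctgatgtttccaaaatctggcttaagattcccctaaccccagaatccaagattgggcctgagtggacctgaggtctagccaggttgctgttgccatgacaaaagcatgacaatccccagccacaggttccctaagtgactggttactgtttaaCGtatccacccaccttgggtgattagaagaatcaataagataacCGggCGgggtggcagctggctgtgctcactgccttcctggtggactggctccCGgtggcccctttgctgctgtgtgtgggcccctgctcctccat
Hnf4a, second window: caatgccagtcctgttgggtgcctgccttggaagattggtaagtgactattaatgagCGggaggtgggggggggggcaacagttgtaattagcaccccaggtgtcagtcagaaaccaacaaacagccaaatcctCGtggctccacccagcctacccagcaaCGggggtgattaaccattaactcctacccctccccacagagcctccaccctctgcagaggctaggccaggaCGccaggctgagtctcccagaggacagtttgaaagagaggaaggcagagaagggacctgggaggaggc

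The Emx1 window held 37 CpGs (observed over expected 0.903), that of Lhx1 31 (0.961) and that of Tfcp2l1 21 (0.656), whereas each Hnf4a window held 4 (0.183 and 0.163). The Pou3f3 window had 18 (0.699), the Pax8 window 7 (0.288), and the 3 Pax2 windows 7, 23 and 30. The factors whose groups did not overlap were all CpG-rich at this window, 1 lower and 2 higher in LBR-null kidneys, but so were Pou3f3 and 2 of the 3 windows of Pax2, whose groups overlapped, as did those of CpG-poor Hnf4a and Pax8. Which factors overlapped depended on single mice, since 5 of 8 lay outside both WT libraries without mouse 4001 (Hnf4a and Pax8 in addition) and also 5 of 8 without mouse 4002 (Pax2 and Pou3f3 in addition). Leaving out libraries can only add genes with such a gap, and the share of all genes was not computed for these smaller sets. The windows were also read on both strands for an HNF4 motif (CAAAGTNCA), present in 1.41% of all windows, and 0 of the 7 members held it.

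**Figure D3:**
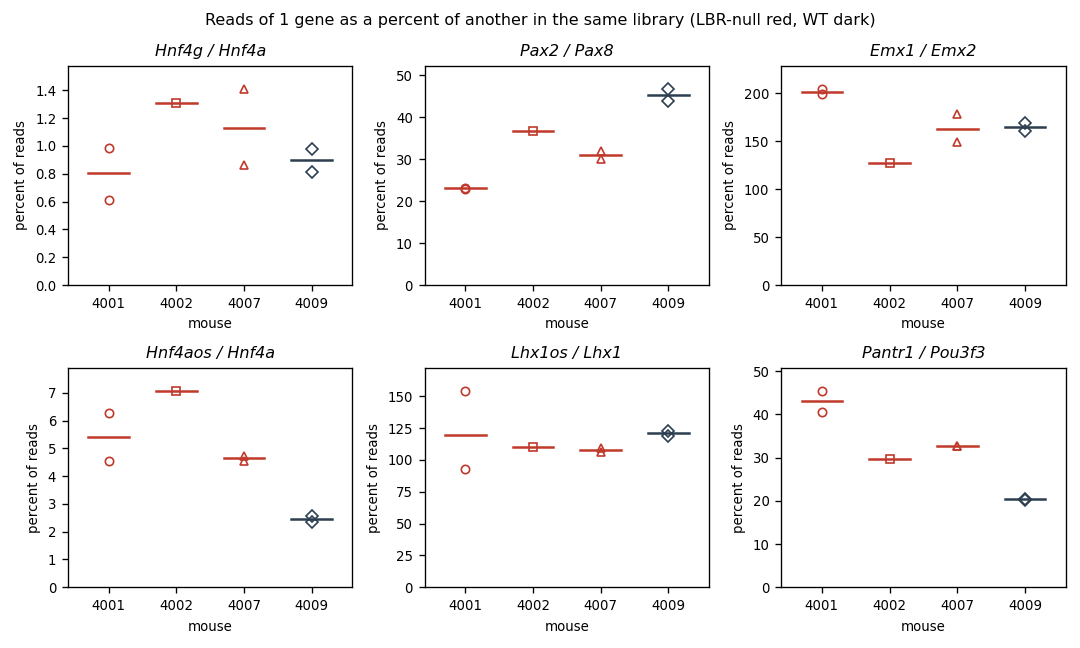
Reads of one gene as a percent of the reads of another in the same library (vertical axis, from 0), by mouse, with 1 symbol per library and a bar for the mouse, LBR-null in red and WT dark. Pax2 over Pax8 is lower, and Hnf4aos over Hnf4a and Pantr1 over Pou3f3 are higher, in all 5 LBR-null libraries than in both WT libraries.

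Several of the factors have a noncoding partner close by, and Hnf4aos and Pantr1 stood higher against Hnf4a and Pou3f3 in LBR-null kidneys, whereas the averages of Pantr2 and Emx2os were below WT. Hnf4aos is transcribed from the strand opposite to Hnf4a, and their gene spans in mm9 share 34913 bases but 0 exon bases. It was at 645, 467 and 462 normalized counts in mice 4001, 4002 and 4007 against 289 in WT, with each LBR-null library above WT (limma log2 difference 0.84 ± 0.30 SE, adjusted p = 0.21). As a share of Hnf4a reads it made 4.56% to 7.05% in LBR-null libraries and 2.34% to 2.55% in WT.

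Pantr1, which RefSeq places 942 bases from Pou3f3 and which lies on the other strand, was at 959, 1041 and 750 against 717 in WT. The mm9 model of Pantr1 lies farther off, at chr1:42705223-42723757 against a Pou3f3 start at 42753991, with a transcript of 198 bases. Pantr1 reads were 29.7% to 45.3% of Pou3f3 reads in LBR-null libraries and 20.3% and 20.5% in WT. Lhx1os, which RefSeq places 125 bases from Lhx1, was at 429, 342 and 322 against 277, and its share of Lhx1 reads overlapped between the groups (93.0% to 154% against 119% and 123%). Like the Pax ratio, these pairs were picked after the values were seen and were not tested. In the mm9 models none of these 3 pairs shares an exon base, and the strand setting of the counting is not stated. Of the remaining partners, Pantr2, a second transcript named for Pou3f3, was at 32.8, 98.0 and 56.6 against 70.1, and Emx2os at 119, 194 and 141 against 213, with each LBR-null library below WT (both named after their values were seen). Of the 8 noncoding transcripts in the list, 5 were listed and tested, 0 were at least 2-fold changed in either direction, and the median log2 difference was 0.36.

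Around the 8 members, lists of other regulators were described by the same counts, with 7.04% of all genes at least 2-fold lower and 14.5% at least 2-fold higher. Among 10 other regulators of the proximal tubule, 0 were at least 2-fold lower and 3 at least 2-fold higher, with a median log2 difference of 0.51. Nr1i3, the nuclear receptor CAR that responds to foreign compounds, was at 215, 283 and 472 normalized counts against 18.2 (limma log2 difference 4.00 ± 0.48 SE, adjusted p = 0.07). Ppara, a nuclear receptor of fatty acid oxidation, was at 4638, 2200 and 3848 against 1397, and Ppargc1a, a coactivator of mitochondrial genes, at 5403, 4236 and 3756 against 2135.

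Of 11 other factors of the thick limb and distal tubule, 0 were at least 2-fold lower and 1 higher, with a median of 0.02 (-0.22 without mouse 4002). That gene was Esrrb, an orphan nuclear receptor, at 3989, 3793 and 3697 against 1012 in WT (limma log2 difference 1.92 ± 0.23 SE, adjusted p = 0.07). Among 11 collecting duct factors 0 were changed 2-fold in either direction, and the median was -0.14, while the mean of the medians of the single mice was 0.13 and the median without mouse 4001 was 0.16. The widest difference there was that of Elf3, an epithelial ETS factor, at 517, 1047 and 609 against 1195.

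Six2, the defining factor of the embryonic nephron progenitor, was at 0.89, 1.72 and 2.75 against 1.24 normalized counts and was not tested, and the POU factor Pou3f4 was listed at 0 in every library. Of the 8 tested genes in this list of 10 progenitor factors, 1 was at least 2-fold lower and 1 higher. Their median was 0.31 (0.15 without mouse 4002), but -0.04 with a minimum mean of 20 and -0.09 in mouse 4001. The lower was Cited1, a coactivator of progenitors, at 74.3, 43.9 and 20.7 against 109. Pou3f2, a paralog of Pou3f3, was at 19.8, 10.3 and 13.4 against 2.20. It is near the floor, with 1 to 24 reads per library, and its WT libraries stood at 0.79 and 3.62. Among 10 glomerular and stromal factors, 1 was at least 2-fold lower and 0 higher, with a median of -0.16 (0.08 without mouse 4001), and this was Tcf21, a factor of podocytes and stroma, at 625, 878 and 501 against 1824. None of the genes in these lists was called by limma on mouse means. At an unadjusted p below 0.05 it gave 1 lower and 3 higher proximal tubule regulators, 2 higher thick limb and distal factors, 0 collecting duct factors, 1 higher progenitor factor and 2 lower glomerular and stromal factors, against 18.76% of all genes tested in either direction.

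**Figure D4:**
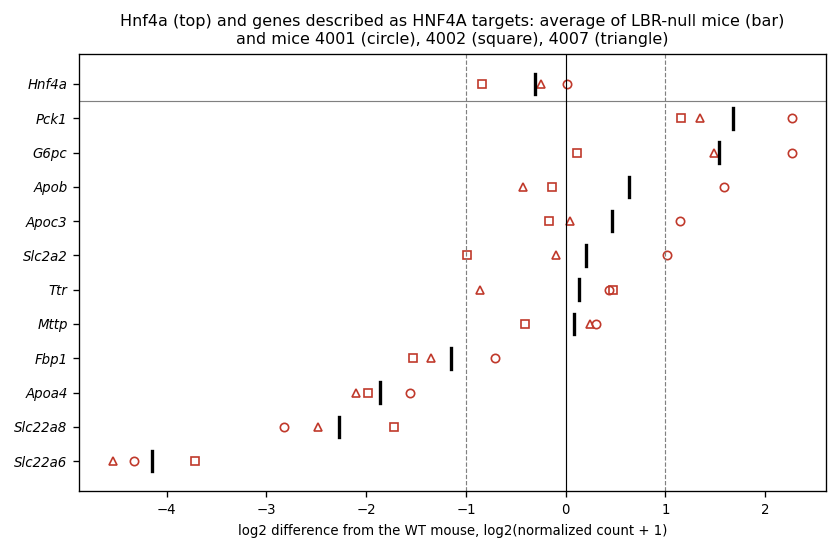
Log2 difference from the WT mouse, on log2(normalized count + 1), of Hnf4a (top row) and 11 of the 12 genes described as its targets, with the average of the LBR-null mice as a bar, single mice as symbols and dashed lines at 2-fold. Slc22a6 lies at -4.15 and Pck1 at 1.68, while Hnf4a lies at -0.31.

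Genes long described as targets of HNF4A lay on both sides of WT. Among all genes tested, 7.04% were at least 2-fold lower, 14.5% at least 2-fold higher and 18.76% at an unadjusted limma p below 0.05. Of 12 such genes, 4 were at least 2-fold lower and 2 at least 2-fold higher, none was called by limma (4 lower and 0 higher at an unadjusted p below 0.05), and the median log2 difference was 0.11 (0.37, -0.29 and -0.38 in mice 4001, 4002 and 4007, and -0.26 for the average without mouse 4001). Slc22a6, an organic anion transporter of the proximal tubule, was at 363, 552 and 313 normalized counts against 7282 in WT (limma log2 difference -4.19 ± 0.36 SE, adjusted p = 0.06). Slc22a8, a second such transporter, was at 1717, 3669 and 2171 against 12133, and the apolipoprotein gene Apoa4 at 40.3 ± 8.52 (SD, n = 3 mice) against 149. The fourth lower gene, named after its values were seen, was Fbp1, an enzyme of gluconeogenesis, at 7191, 4057 and 4607 against 11747.

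The higher genes were enzymes of the same pathway as Fbp1. Pck1 was at 188203, 87425 and 99628 against 39117, and G6pc at 16780, 3771 and 9789 against 3487, with mouse 4001 highest for both. Many genes of this list are also liver genes, and mouse 4001 was also the highest in summed liver markers (19168, 7473 and 8318 against 3442 in WT), whose part in these values was not tested.

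Most proximal tubule markers had lower levels in LBR-null kidneys, although limma called none of them. Of 12, 7 were at least 2-fold lower and 1 at least 2-fold higher, against 7.04% and 14.5% of all genes tested, with a median log2 difference of -1.56. Their summed level was 185459, 142385 and 140179 in mice 4001, 4002 and 4007 against 207700 in WT. Much of that sum was Slc27a2, at 92178, 63528 and 67684 against 51706. In each LBR-null library 3 markers (Slc27a2, Aqp1 and Slc5a12) lay above WT and 8 below, against 25.5% and 25.7% of all genes tested. Slc22a6 and Slc22a8 led the lower ones, and both also stand in the list of HNF4A targets. Slc5a12, a lactate transporter, was the one at least 2-fold higher, at 13741, 7742 and 13546 against 4580.

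Thick ascending limb markers summed to 222249, 153224 and 97267 against 106606, and 0 of 7 were 2-fold changed. The most different was Egf, at 73195, 43348 and 29657 against 26365. Distal and connecting tubule markers summed to 70575, 66300 and 65324 against 112073. Of these 7, 2 were at least 2-fold lower and 1 higher, against 7.04% and 14.5% of all genes tested. The lower were Pvalb, a calcium-binding protein of the distal convoluted tubule, at 57.7, 141 and 52.9 against 539, and the sodium-calcium exchanger Slc8a1, at 2141, 1532 and 1381 against 3914, and the higher was the magnesium channel Trpm6, at 1212, 1315 and 1436 against 414.

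Collecting duct markers were 2-fold changed in no case. Principal cell markers summed to 43972, 56686 and 33673 against 36479, and their most different gene, the water channel Aqp3, was at 7863, 6129 and 3569 against 3676. Intercalated cell markers summed to 17361, 20120 and 20006 against 18061, led by the bicarbonate transporter Slc4a9, at 3375, 5047 and 5965 against 2845.

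**Figure D5:**
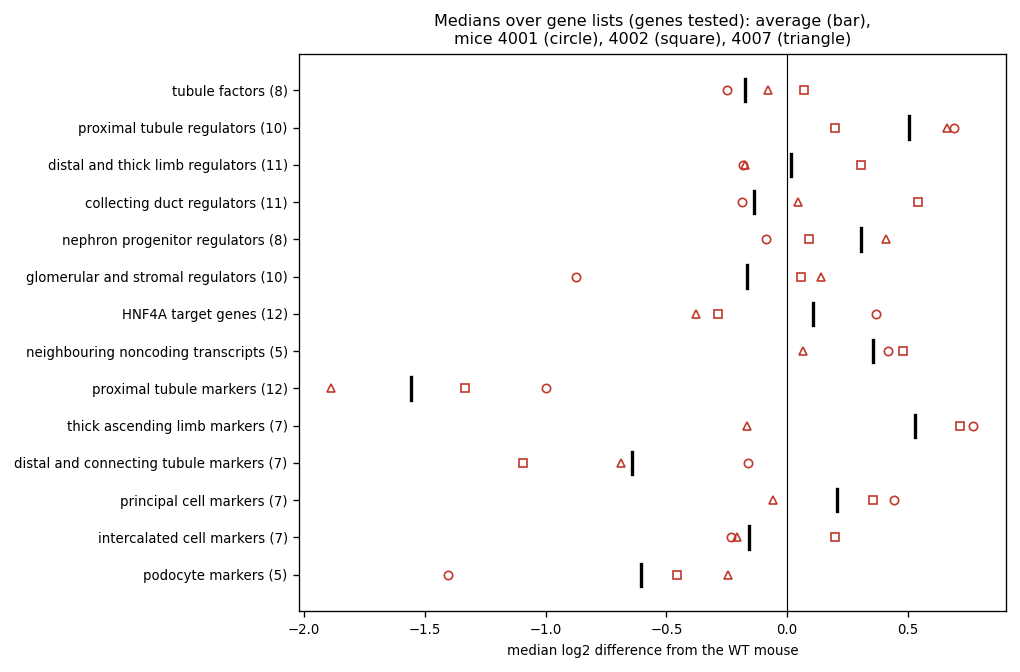
Median log2 difference from the WT mouse over the genes tested in each list (number in brackets), as the median of the LBR-null average (bar) and in single mice (symbols). The tubule factors lie at -0.18 and the proximal tubule markers at -1.56, and for the proximal tubule markers all 3 mice lie below 0, from -1.89 to -0.999.

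Markers of other cells were summed in the same way, with no test. Podocyte markers summed to 8202, 14612 and 15889 in mice 4001, 4002 and 4007 against 20142 in WT, endothelial markers to 12891, 14073 and 15054 against 14551, stromal markers to 15243, 8843 and 12599 against 14689, and macrophage markers to 2075, 2070 and 1883 against 2977. Neutrophil markers summed to 1007, 379 and 2371 against 63.0, adrenal markers to 171, 224 and 225 against 126, and adipocyte markers to 7782, 6697 and 5212 against 6263. Most of the adipocyte sum was Fabp4 (7554, 6654 and 5147 against 4998), which endothelial cells also express. The other 4 of the 5 adipocyte markers were at least 2-fold lower (list median -3.08), as 7.04% of all genes tested were. In LBR-null mice the endothelial, stromal and adipocyte sums lay on both sides of WT. Every marker listed had reads in at least 1 library, and Ly6g was the only one not listed. The part of these cells in the levels of the 8 factors was not tested.

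Per kilobase of the longest annotated transcript, the factors kept a wide order of levels. In LBR-null kidneys Hnf4a was highest at 2181 ± 617 normalized counts per kb (SD, n = 3 mice), followed by Tfcp2l1 at 1154 ± 69.7, Pax8 at 880 ± 297, Pou3f3 at 874 ± 234, Emx1 at 550 ± 56.2, Pax2 at 198 ± 105, Lhx1 at 79.9 ± 7.89 and Hnf4g at 23.7 ± 3.09. Tfcp2l1, Pax8 and Pou3f3 differed from one another by less than the SD of Pax8, and their order changed from mouse to mouse. In WT the order was Hnf4a (2707), Pou3f3 (1148), Tfcp2l1 (972), Emx1 (863), Pax8 (732), Pax2 (235), Lhx1 (56.7) and Hnf4g (25.5). Emx1 lay above Pax8 in the WT mouse, and below it in all 3 LBR-null mice, narrowly so in mouse 4001 (537 against 573).

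For the 3 factors with no overlap, the genes of closest profile were sought among 13066 genes with a mean of at least 50, by Pearson's r over the 7 libraries. The libraries come from 4 mice, and those of a mouse are not independent, so r is a description. Emx1 was most like Fbp2 (r = 0.998), a muscle-type fructose bisphosphatase, at 224 ± 67.2 (SD, n = 3 mice) against 724 in WT, and then like Proc (0.996), protein C, and Pld4 (0.996). Lhx1 was most like Myo6 (0.998), a myosin of the brush border, at 7351 ± 223 against 6499, then Abcc1 (0.990) and Rab11fip2 (0.990). Tfcp2l1 was most like Zfp275 (0.988), at 423 ± 54.9 against 293, then Asap2 (0.984) and Clcn6 (0.980).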

How the data were processed

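Kidney RNA-seq was analysed for 3 LBR-null mice and 1 WT littermate (7 libraries). The authors used STAR 2.6.0 for alignment (mm9) and deposited 1 file per library with a signal per gene symbol, which is the read count over the library's DESeq2 1.25.1 size factor. Tool versions are from the submitters' processing notes. The counting program, its annotation and its strand setting are not given in the sources used here. Dividing by the value of 1 read gave whole reads for 100% of values (within 0.01 read). Libraries were averaged within a mouse, which was the replicate. Where nothing says that libraries come from separate aliquots, their spread may be technical.

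limma 3.58.1 (R 4.3.3; lmFit, eBayes with trend) was fitted to log2(normalized count + 1), taken of each mouse's mean, keeping the 17283 genes that averaged 5 or more. The p-values were adjusted by Benjamini-Hochberg, with limits of 0.05 and 2-fold. It was tested on simulated data with changes far larger than any member showed, so that run says nothing about differences of the size seen here. edgeR 4.0.16 and DESeq2 1.42.0 on the recovered reads were alternatives. "Log2 difference" without limma is that of the group means on the same log2(value + 1) scale, which understates differences of low genes. The members and gene lists were chosen with earlier results of these data known. Every member was named, with each list's 3 genes of largest difference in a direction among those at least 2-fold changed, or else the single largest (2 genes for marker lists), and Lbr, Xist and Ddx3y. Some genes that this rule names are not reported here. Gene positions are GENCODE M1 (mm9), and promoter sequences are from RefSeq (GRCm38.p6).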

Additional observations from a re-analysis of the deposited data

Results flagged for a closer look

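In groups of 5 LBR-null libraries, 4 of 21 values looked at had a highest library far from the nearest of the others. About 1 in 20 such groups is expected to do so by chance, and libraries of a mouse are not independent. Lhx1 stood at 404 normalized counts in the second library of mouse 4001, whose first library was at 314. Pou3f3 stood at 3501 in the only library of mouse 4002, near the WT level of 3514. Lhx1os reads were 154% of Lhx1 reads in the first library of mouse 4001, against 93.0% in its second. The summed level of 11 thick limb and distal factors was 16846 in the library of mouse 4002, against 12863 to 13425 in the other LBR-null libraries.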

How the results depend on the processing

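Of 128 member values over 16 alternatives, 124 kept their direction, 4 turned and 0 passed the threshold. Leaving out 1 mouse moved the log2 difference of Pax2 between -0.785 and 0.061 (turned without mouse 4001) and that of Pax8 between -0.026 (without mouse 4002) and 0.487. Hnf4g turned to 0.014 without WT library 1, and Pax8 to -0.027 with the replicate block. That block also leaves out mouse 4002, whose library has no number, so its values do not show the part of the block alone. Library numbers name libraries of a mouse and do not pair mice (correlations of library 1 minus library 2 between mice of -0.02, -0.01 and -0.04). With the number as a block over 6 libraries, 0 members and 1313 genes were called. Of the lists, the block called 3 proximal tubule, 1 distal, 1 collecting duct and 1 glomerular or stromal regulator and 5 HNF4A targets. Taking 7 libraries with mouse as a correlation, limma called 847 genes, among them 3 proximal tubule, 1 distal and 1 glomerular or stromal regulator and 3 HNF4A targets. edgeR called 28 genes, 1 of them an HNF4A target. DESeq2 called 1109, with 2 proximal tubule, 1 distal and 1 glomerular or stromal regulator and 4 HNF4A targets. The limma fit of mouse means called 0 genes, with 1391 lower and 1852 higher at an unadjusted p below 0.05. Leaving out 1 mouse or WT library gave 0 to 1163 called genes (625 without mouse 4002 and 1163 without mouse 4001), 0 to 2 proximal tubule, 0 to 1 distal and 0 to 1 glomerular or stromal regulators, and 0 to 4 HNF4A targets. It moved the median of the members between -0.226 (without mouse 4007) and 0.002 where a mouse was left out, and to -0.262 without WT library 2, and the members outside both WT libraries between 3 and 5 (5 without mouse 4001 or 4002). Fewer libraries can only raise that last count, and its share over all genes was not computed there. The cause was not tested. The medians of the proximal tubule regulators (0.42 to 0.677) and noncoding neighbours (0.238 to 0.477) kept their sign in all 16 alternatives. That of the progenitor regulators moved to -0.041 with a minimum mean of 20 and to -0.001 with the block, which lacks mouse 4002. Without mouse 4001 the collecting duct median turned to 0.159, the glomerular and stromal median to 0.081 and the HNF4A target median to -0.258. The thick limb and distal median, near 0 at the outset, turned in 6 alternatives. It went furthest to -0.225 with the block and -0.224 without mouse 4002, which the block leaves out too. With a single WT mouse, its own deviation and the genotype cannot be told apart. Hnf4g, with 62 to 146 reads per library, is the member that depth limits most.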

Other observations

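Podocyte markers were below both WT libraries in 5 of 5 cases, as 25.7% of all genes tested were. The macrophage markers were also below WT in 5 of 5 cases, with C1qb at 363, 291 and 262 normalized counts in mice 4001, 4002 and 4007 against 544 in WT. Stromal markers were uneven, with Col1a1, the main fibrillar collagen, at 1776, 1016 and 767 against 6661, Lum at 1058, 43.9 and 31.7 against 146, and Dcn at 8777, 2749 and 5872 against 2862. The endothelial receptor gene Flt1 was at 2039, 2061 and 2196 against 1322.

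Neutrophil transcripts were above WT in 6 of 6 markers listed, as 25.5% of all genes tested were, with Retnlg at 145, 44.7 and 331 against 0.39 and S100a9 at 273, 136 and 891 against 8.23. The liver secretory genes Serpina1a and Fgb were at 7495, 4395 and 5637 against 1369 and at 918, 212 and 442 against 149. Hsd3b1 and Cyp21a1, of the adrenal cortex, were at 10.9, 19.8 and 15.6 against 0.45 and at 10.6, 19.8 and 4.63 against 2.14. Cfd and Plin1, of adipocytes, were at 169, 26.6 and 39.6 against 1015 and at 12.3, 4.30 and 5.06 against 81.5. Whether these cells differed in number was not tested.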
